A study of Danio rerio with 16 samples.

Results

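The apolipoprotein A4, E, C and A2 genes of zebrafish were followed across genotype and age in bulk RNA-seq read counts. The members are the genes listed in the count table under the symbols apoa4a, apoa4b.1, apoa4b.2, apoea, apoeb, apoc1, apoc2 and apoa2, which is 8 of 36109 genes, and they were taken by symbol and not by their values. All 8 passed the filter on low counts that left 24300 genes for testing. The mutant embryos carried a CRISPR/Cas9-mediated knockout of 2 genes, lipf (gastric lipase) and pla2g15 (a phospholipase of the lysosome), and the controls were wild-type (WT) siblings with no treatment. Mutants and siblings are called mut48 and sib48 at 48 hours post fertilisation (hpf) and mut24 and sib24 at 24 hpf, with 4 libraries in each of the 4 groups. The labels call the tissue body, while the design text speaks of whole embryos. The sources used here do not give the number of embryos in a library, the alleles or the clutches. The spread behind each p-value is that between these libraries and may be technical.

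Apolipoproteins coat the lipid particles that carry triglyceride and cholesterol between tissues. In the zebrafish embryo the yolk syncytial layer, a sheet of shared cytoplasm around the yolk, packs yolk lipid into such particles before the liver and intestine take over. Apoa4 and Apoa2 are exchangeable coat proteins, Apoe is the ligand by which receptors of the low-density lipoprotein receptor family take particles up, and Apoc2 is the cofactor that activates lipoprotein lipase.

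Libraries held 35.9 to 50.5 in units of 1e6 counts. The lipf transcript was 9.32-fold lower in mut24 than in sib24 (edgeR adjusted p = 0.00119) and 9.45-fold lower in mut48 than in sib48 (edgeR adjusted p = 4.31e-05), and pla2g15 was not called at either age (edgeR adjusted p = 0.71 at 24 hpf and 0.468 at 48 hpf). The 8 libraries of 24 hpf stood apart from each other in yolk genes, though not in these alone. For 22 yolk syncytial layer markers, none of them a member, the average log2 CPM (counts per 1e6 counts of a library, scaled by TMM factors) ran from 1.81 to 4.62 in mut24 and from 2.12 to 4.28 in sib24. At 48 hpf it ran from 3.88 to 4.20 in mut48 and from 4.00 to 4.34 in sib48. The average of 17 hepatocyte markers, a list that shares genes with the yolk list, also varied at 24 hpf. It ran from 0.056 to 4.14 in mut24 and from 0.26 to 3.78 in sib24.

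At 48 hpf the transcripts of all 8 apolipoprotein genes had lower means in mutants than in siblings, by 1.37-fold for apoa2 to 85.3-fold for apoa4b.2. For 7 of the 8 the highest mutant library lay below the lowest sibling library, where 8.46% of all tested genes were lower with no overlap in this comparison. In the test fitted to all 16 libraries apoa4b.2 fell, by a log2 fold change of -6.42 (SE 1.59, edgeR adjusted p = 0.0214), while the other 7 members were not called, where 4.59% of tested genes were called lower and 2.84% higher. The median log2 fold change was -1.29 over the 8 members and -0.04 over all genes. In a bulk sample, fewer cells that make a transcript and less transcript per cell cannot be told apart.

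The A4 paralogs differed in how far they stood below the sibling level at 48 hpf. The apoa4b.2 transcript had 0.183, 0.136, 0.508 and 0.279 CPM in mut48 against 27.7, 20.1, 12.2 and 36.6 CPM in sib48. These mutant values rest on 6 to 24 reads per library, against 550 to 1352 reads in sib48, and the groups were far apart. Only 2 of the 24300 tested genes had a more negative log2 fold change. The apoa4b.1 transcript, from the same cluster, had 69.6, 46.8, 74.0 and 59.0 CPM in mut48 against 201, 191, 137 and 171 CPM in sib48. Every mutant library was below every sibling library, with a log2 fold change of -1.49 (SE 1.11, edgeR adjusted p = 0.481). The apoa4a transcript had 1.60, 0.770, 3.22 and 2.26 CPM in mut48 against 9.40, 5.33, 5.32 and 9.07 CPM in sib48. These groups did not overlap either, and the log2 fold change was -1.89 (SE 1.04, edgeR adjusted p = 0.312).

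The Apoe paralogs were also unequal. The apoea transcript had 6.88, 5.41, 18.2 and 3.75 CPM in mut48 against 149, 94.1, 74.5 and 109 CPM in sib48. Every mutant library was below every sibling library, mutant replicate 3 coming closest, and the log2 fold change was -3.63 (SE 1.12, edgeR adjusted p = 0.0575, which misses the threshold of 0.05). The apoeb transcript, which is also used as a marker of zebrafish microglia, had 158, 154, 189 and 118 CPM in mut48 against 375, 248, 263 and 275 CPM in sib48. The groups did not overlap, and the log2 fold change was -0.91 (SE 0.504, edgeR adjusted p = 0.313). Of 14 tested markers of macrophages and microglia, 0 were called at 48 hpf in either direction, and their summed level was 43.9 to 65.0 CPM in mut48 and 49.9 to 52.5 CPM in sib48. Over all marker lists used here, grn1, a granulin gene of the macrophage list, was the only marker in the table with 0 reads in a whole group, mut24.

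The C genes were lower by similar factors. The apoc1 transcript, whose human protein inhibits lipoprotein lipase, had 141, 126, 154 and 83.3 CPM in mut48 against 306, 235, 198 and 221 CPM in sib48 (log2 fold change -0.93, SE 0.406, edgeR adjusted p = 0.185). The apoc2 transcript had 28.2, 27.9, 44.4 and 36.4 CPM in mut48 against 94.1, 63.4, 58.5 and 75.0 CPM in sib48 (-1.09, SE 0.867, edgeR adjusted p = 0.517). Neither gene had overlapping groups. For apoa2, a coat protein of high-density lipoprotein, the groups did overlap, with 374, 437, 494.7 and 465 CPM in mut48 and 752, 620.2, 478.5 and 584 CPM in sib48 (-0.46, SE 0.961, edgeR adjusted p = 0.845). Mutant replicate 3 was above sibling replicate 3. Together the 8 transcripts made up 0.0873 ± 0.00986% of the counts of a library in mut48 and 0.155 ± 0.0319% in sib48 (SD, n = 4 each). The highest mut48 library reached 0.102% and the lowest sib48 library 0.127%.

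**Figure D1:**
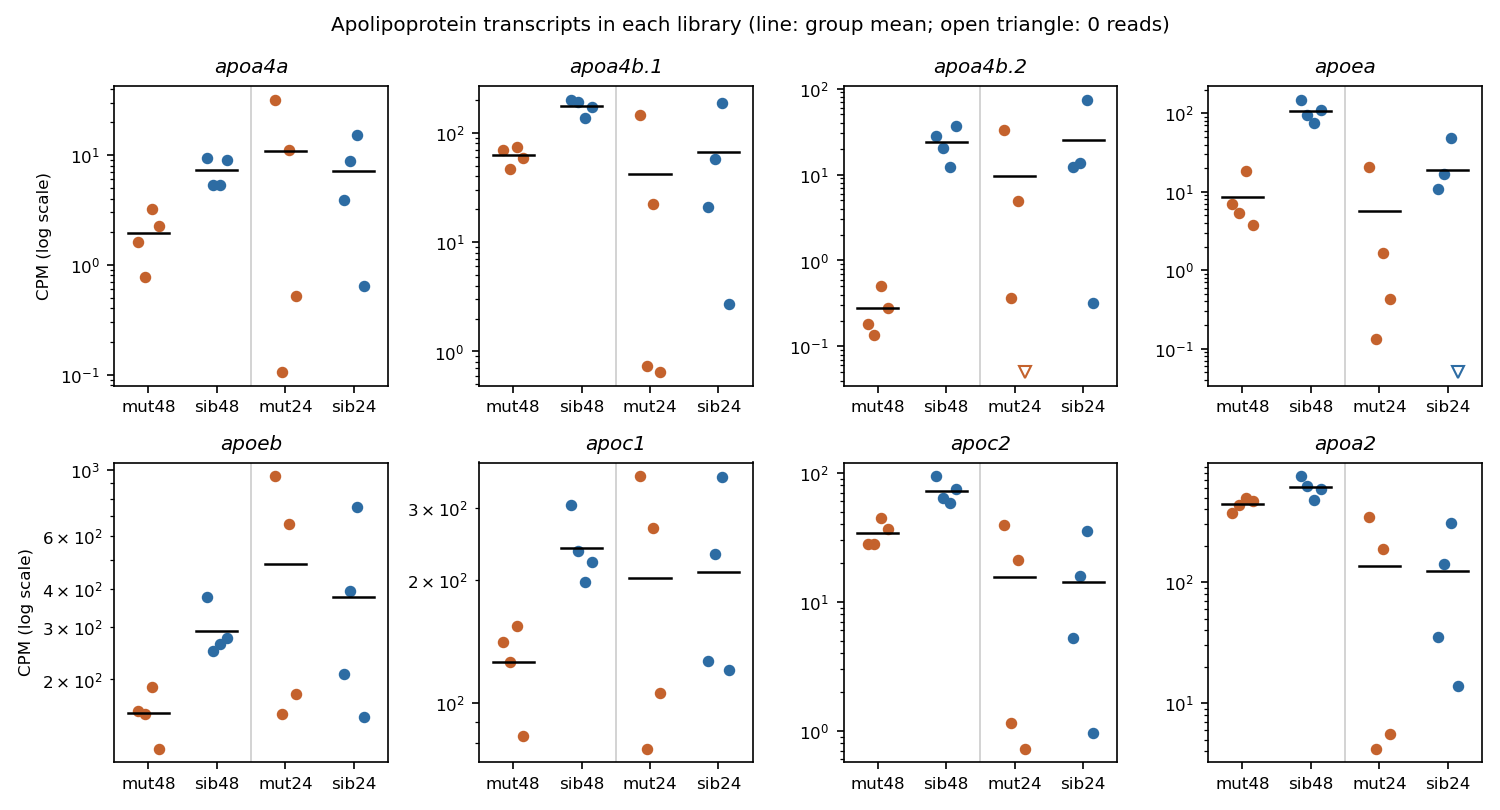
CPM of each apolipoprotein transcript in each library on a log axis, 1 panel per gene with its own scale, mutants in orange and siblings in blue, black lines for group means and open triangles for libraries with 0 reads. At 48 hpf the mutant points lie below the sibling points for every gene but apoa2, most of all for apoa4b.2 (0.136 to 0.508 CPM in mut48 against 12.2 to 36.6 CPM in sib48), while at 24 hpf both genotypes spread over a wide range.

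The test at 48 hpf depended on whether the libraries of 24 hpf shared in the estimate of the spread. In a fit of the 8 libraries of 48 hpf alone, 7 of the 8 members were called lower and 0 higher, where 2.07% of tested genes were called lower. The log2 fold changes were nearly the same, at -6.37 for apoa4b.2 (SE 0.413, edgeR adjusted p = 5.93e-06), -3.59 for apoea (SE 0.408, edgeR adjusted p = 0.000393), -1.85 for apoa4a (SE 0.355, edgeR adjusted p = 0.0125) and -1.45 for apoa4b.1 (SE 0.146, edgeR adjusted p = 0.000155). The rest stood at -1.05 for apoc2 (SE 0.168, edgeR adjusted p = 0.00473), -0.89 for apoc1 (SE 0.175, edgeR adjusted p = 0.0143) and -0.87 for apoeb (SE 0.150, edgeR adjusted p = 0.00729), and apoa2 was not called (-0.42, SE 0.126, edgeR adjusted p = 0.0754). Leaving out each library of 48 hpf in turn, an alternative added after the data were seen, left these 7 called every time, and without sib48 replicate 3 apoa2 was called too (8 of 8). In the fit of all 16 libraries, apoa4b.2 lost its call without mut48 replicate 1 (edgeR adjusted p = 0.0513), replicate 2 (0.0654) or replicate 4 (0.0505). With the mean of the yolk syncytial layer markers as a covariate, 7 members were called lower, where 5.13% of tested genes were. Leaving the 24 hpf libraries out therefore changed the errors and hardly the differences.

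**Figure D2:**
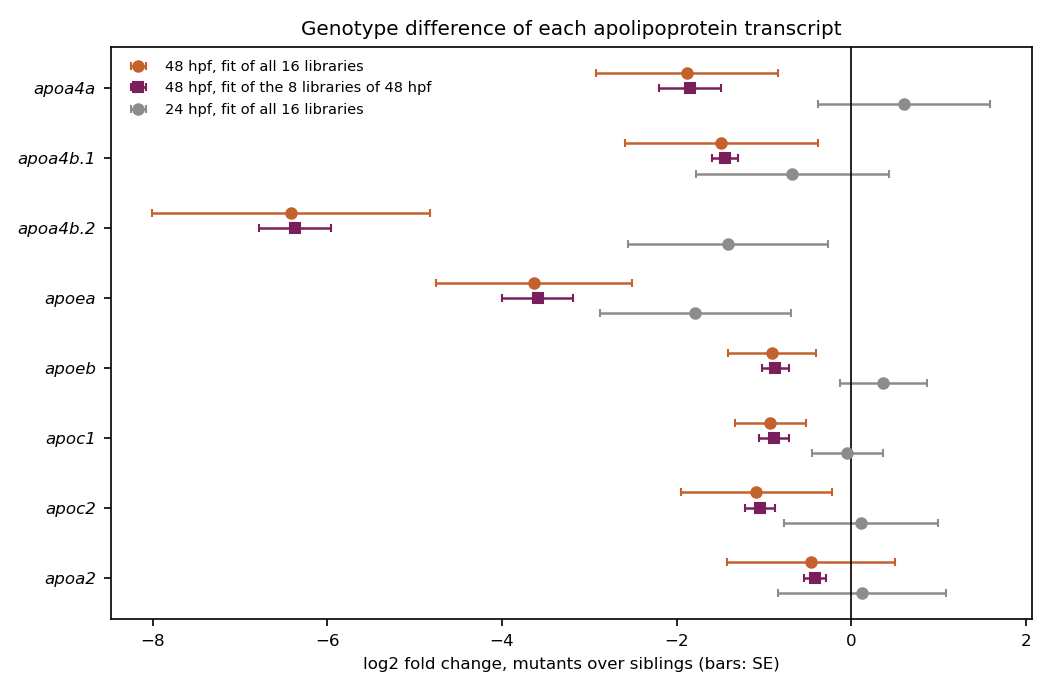
Log2 fold change of each apolipoprotein transcript, mutants over siblings, with bars for the SE, at 48 hpf from the fit of all 16 libraries (orange) and of the 8 libraries of 48 hpf (purple squares), and at 24 hpf (grey). The 48 hpf points of both fits nearly coincide while the bars differ, with apoa4b.2 at -6.42 and -6.37, and 6 of the 8 grey bars span 0.

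Markers of the tissues that make apolipoproteins gave mixed values at 48 hpf. Of the 22 yolk syncytial layer markers 2 were called higher and 0 lower in mut48, and their summed level was 740 to 977.1 CPM in mut48 and 976.9 to 1429 CPM in sib48, which just overlapped. In the fit of the 48 hpf libraries alone 4 of these 22 markers were called higher and 6 lower. Of all 23306 genes tested in that fit, 711 were called higher and 482 lower. In the fit of all 16 libraries 2.84% of tested genes were called higher and 4.59% lower. Of 17 hepatocyte markers 0 were called in the fit of all libraries and 2 in that of 48 hpf, both higher, with sums of 644 to 997 CPM in mut48 and 674 to 1077 CPM in sib48. Of 9 intestinal epithelium markers 0 were higher and 1 lower (2 lower in the fit of 48 hpf), with sums of 56.0 to 84.3 CPM in mut48 and 111 to 127 CPM in sib48, which did not overlap. Their mean log2 CPM did overlap, at 1.48 to 2.03 in mut48 and 1.79 to 2.15 in sib48, and their median log2 fold change was 0.085. The part of these tissues in the lower apolipoprotein levels was not tested.

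Ratios of paralogs within a library, from which library scaling cancels, set the members against each other. The log2 ratio of apoa4b.2 to apoa4b.1 was -8.40, -8.21, -7.13 and -7.61 in mut48 against -2.86, -3.25, -3.48 and -2.22 in sib48. It was 29.5-fold lower in mut48, in 4 of 4 libraries. Against apoa4a, apoa4b.2 was 20.7-fold lower in mut48 (log2 ratio -2.71 ± 0.302 in mut48 and 1.67 ± 0.371 in sib48, SD, n = 4 each). For apoeb to apoea the log2 ratio was 4.51, 4.82, 3.37 and 4.96 in mut48 against 1.33, 1.40, 1.82 and 1.33 in sib48, which is 7.71-fold higher in mut48, again with no overlap. Each of these 3 differences had an exact two-sided permutation p of 0.0286, the smallest that 70 assignments allow, and an adjusted p of 0.0571 over the 20 ratio tests (exact permutation, Benjamini-Hochberg), so that none passed the correction. With that smallest p, no single ratio could pass over 20 tests on its own, however large its difference. The ratios of apoa4b.1 to apoa4a (log2 difference 0.51, exact permutation p = 0.2) and of apoc1 to apoc2 (0.14, exact permutation p = 0.6) had overlapping groups at 48 hpf. By these values apoa4b.2 and apoea stood further below the sibling level than their paralogs did. At 24 hpf all 5 ratios had overlapping groups, with exact permutation p from 0.143 for apoa4b.1 to apoa4a to 0.886 for apoc1 to apoc2. Prior count 1 was added to both counts of a ratio. The sources used here do not say how reads that match several places were counted, so the split of any such reads between A4 copies is uncertain. Per mut48 library apoa4b.2 had 6 to 24 reads and apoa4b.1 had 2065 to 3498. How alike the copies are in sequence was not tested.

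**Figure D3:**
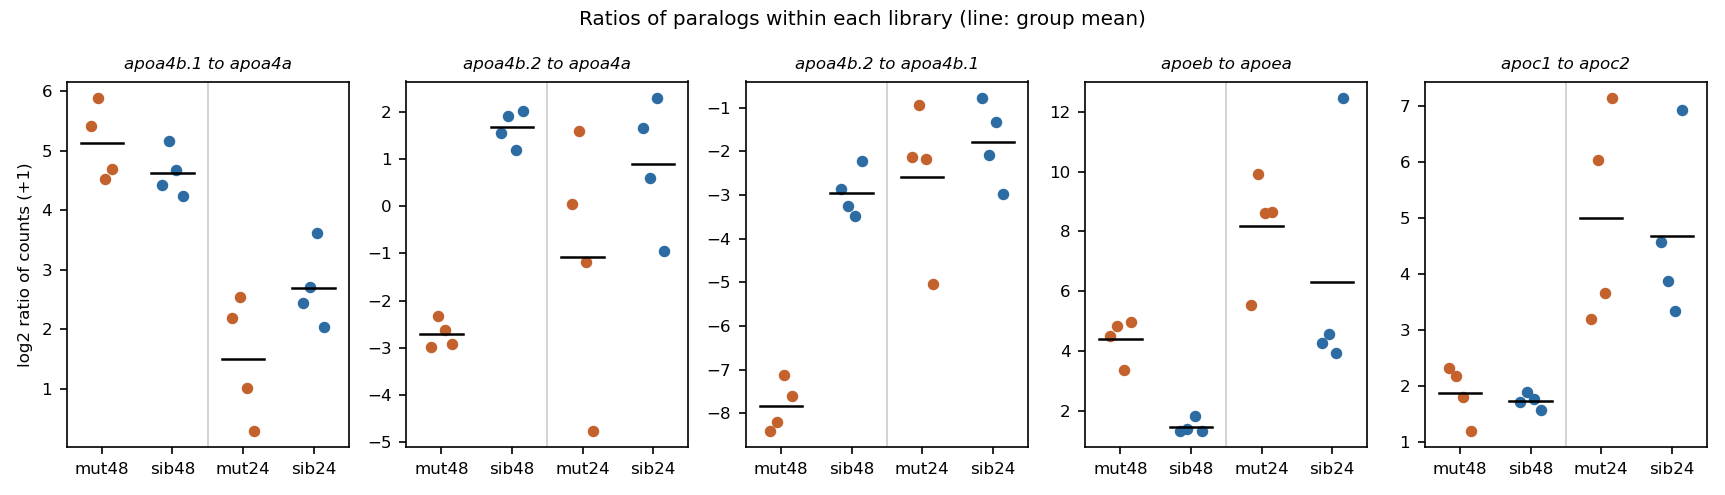
Log2 ratio of the counts of each pair of paralogs in each library, mutants in orange and siblings in blue, black lines for group means. At 48 hpf the mutant points of apoa4b.2 to apoa4b.1 lie at -8.40 to -7.13 and the sibling points at -3.48 to -2.22, the ratio of apoeb to apoea is shifted the other way, and the ratios of apoa4b.1 to apoa4a and of apoc1 to apoc2 overlap.

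At 24 hpf no member differed between genotypes beyond the spread of the libraries. In the fit of all 16 libraries 0 of 8 members were called by edgeR (0 at an unadjusted p below 0.05), where edgeR called 0.831% of tested genes in either direction. DESeq2 also called 0 of 8, where it called 373 of 24300 genes higher and 449 lower. For 0 of the 8 did the groups part without overlap, which 8.52% of tested genes did. Log2 fold changes ran from -1.78 for apoea (SE 1.09, edgeR adjusted p = 0.507) and -1.41 for apoa4b.2 (SE 1.15, edgeR adjusted p = 0.646) to 0.60 for apoa4a (SE 0.983, edgeR adjusted p = 0.854). The others were -0.68 for apoa4b.1, 0.37 for apoeb, 0.12 for apoa2, 0.11 for apoc2 and -0.05 for apoc1. With standard errors of 0.403 to 1.15, a difference of the size seen at 48 hpf in most members was not detectable here.

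Within each genotype the 24 hpf libraries spread far more than those of 48 hpf. The SD of log2 CPM within a group ran from 1.06 (apoc1) to 4.11 (apoa4b.2) in mut24 and from 0.750 (apoc1) to 4.46 (apoea) in sib24. At 48 hpf it ran from 0.174 (apoa2) to 0.969 (apoea) in mut48 and from 0.248 (apoa4b.1) to 0.679 (apoa4b.2) in sib48. The apoa4b.1 transcript had 144.7, 0.734, 22.4 and 0.645 CPM in mut24 and 21.1, 57.9, 186 and 2.71 CPM in sib24. Its highest library exceeded its lowest 289-fold over the 8 libraries of 24 hpf, against 4.31-fold over the 8 of 48 hpf. Such ranges take in both genotypes and thus their difference. At 48 hpf the range was 269-fold for apoa4b.2, 39.8-fold for apoea and 3.68-fold for apoc1. The apoa4b.2 transcript had 32.9, 0.367, 4.90 and 0 CPM in mut24 and 12.2, 13.5, 74.3 and 0.319 CPM in sib24. The count of 0 allows up to 0.0605 CPM at 3 counts per library, and the range was at least 1229-fold. The apoea transcript had 20.6, 0.131, 1.64 and 0.423 CPM in mut24 and 10.7, 16.8, 48.9 and 0 CPM in sib24, a range of at least 612-fold. In every case the high libraries were mut24 replicate 1 and sib24 replicate 3, and the low ones mut24 replicates 2 and 4 and sib24 replicate 4.

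The A4 gene apoa4a had 31.9, 0.105, 11.1 and 0.524 CPM in mut24 and 3.87, 8.89, 15.2 and 0.639 CPM in sib24, a 304-fold range. For apoa2 the values were 344, 4.20, 187 and 5.52 CPM in mut24 and 35.4, 142, 306 and 13.9 CPM in sib24, an 82.1-fold range. The lipase cofactor apoc2 had 39.3, 1.15, 21.1 and 0.726 CPM in mut24 and 5.27, 15.7, 35.2 and 0.958 CPM in sib24, a 54.2-fold range. The spread was smallest for apoeb and apoc1. The receptor ligand gene apoeb had 951, 153, 658 and 179.5 CPM in mut24 and 208, 395, 752 and 149.6 CPM in sib24, a 6.36-fold range. With 359, 77.3, 269 and 106 CPM in mut24 and 127, 232, 358 and 120.5 CPM in sib24, apoc1 had a 4.65-fold range. The highest of the 8 libraries was mut24 replicate 1 or sib24 replicate 3 for each of the 8 genes. Of the counts of a library, the 8 transcripts took 0.0229 to 0.183% in mut24 and 0.0272 to 0.177% in sib24.

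The yolk syncytial layer markers were highest and lowest in the same libraries. The marker mean was 4.62, 1.84, 4.11 and 1.81 in mut24 replicates 1 to 4 and 2.91, 3.72, 4.28 and 2.12 in sib24 replicates 1 to 4. Levels did not follow the marker mean in every library. For apoa4b.1, apoa4b.2 and apoea, mut24 replicate 3 lay below sib24 replicate 2, whose marker mean was lower, and for apoa4b.2 and apoea also below sib24 replicate 1. With the marker mean as a covariate, 3 members were called lower in mut24 by edgeR, namely apoa4b.1 at -1.74 (adjusted p = 0.00922), apoa4b.2 at -2.53 (adjusted p = 0.0333) and apoa2 at -0.58 on the log2 scale (adjusted p = 0.0219), where 0.823% of tested genes were called lower. Without the 4 libraries lowest in these markers, mut24 replicates 2 and 4 and sib24 replicates 1 and 4, which were chosen after the data were seen, 0 of 8 were called. That fit called few genes at all, 6 of 25082 higher and 17 lower, so its 0 says little about these members. The marker list holds the assembly genes mttp and pla2g12b, which were themselves called lower in mut48 in the fit of the 48 hpf libraries. Whether genotype or the amount of yolk tissue in a library set the 24 hpf levels was not tested. Of 15 epidermis markers 4 were called higher and 0 lower at 24 hpf in the fit of all libraries, where 95 of 24300 genes were called higher. In the fit of the 24 hpf libraries alone, where 64 of 22136 genes were called higher, 1 of these markers was. Their sums were 17578 to 24839 CPM in mut24 against 10002.5 to 16565 CPM in sib24, which did not overlap. Their mean log2 CPM did overlap, at 6.98 to 7.48 in mut24 and 6.42 to 7.33 in sib24.

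**Figure D4:**
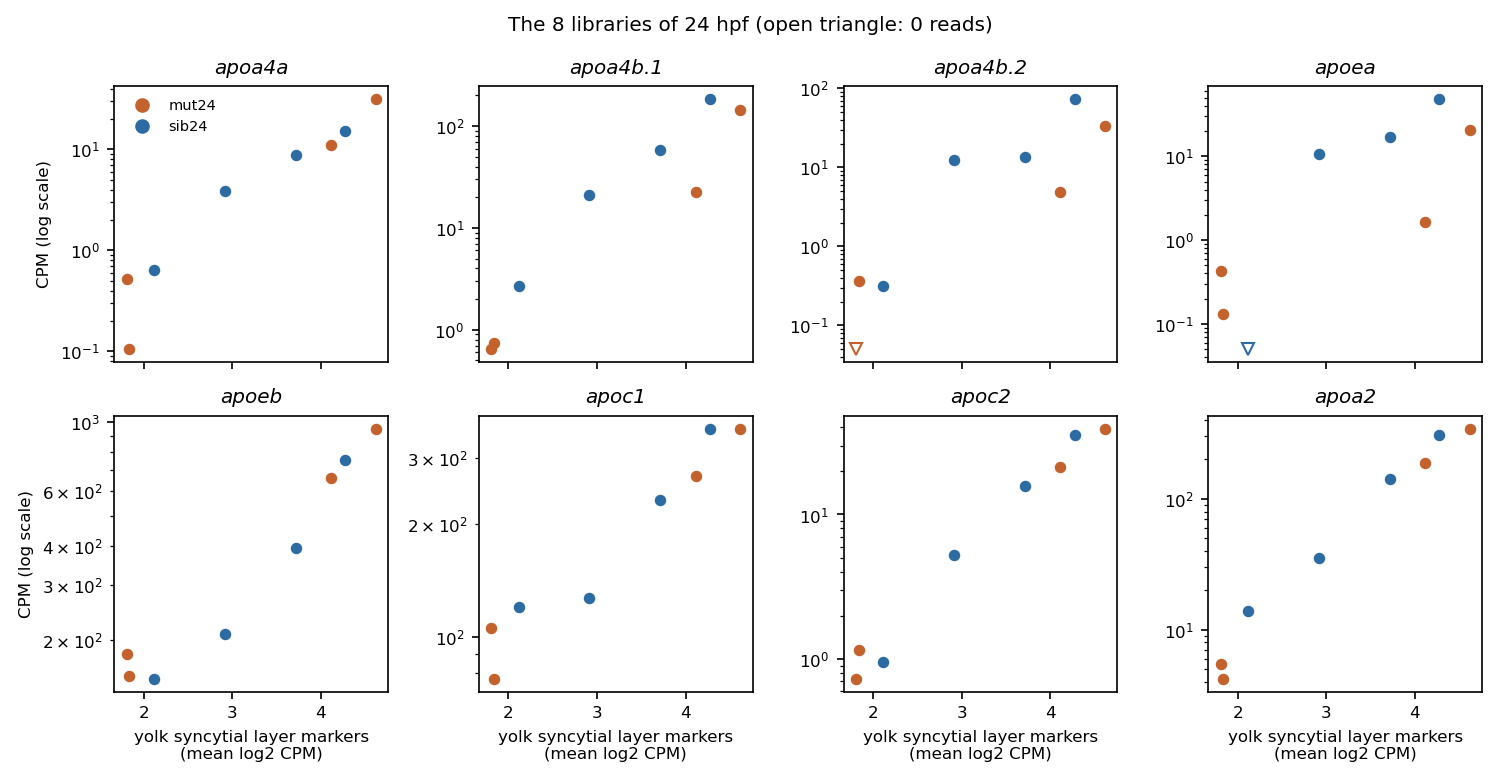
CPM of each apolipoprotein transcript on a log axis against the mean log2 CPM of 22 yolk syncytial layer markers in the 8 libraries of 24 hpf, mut24 in orange, sib24 in blue and open triangles for libraries with 0 reads. The 3 leftmost points (mut24 replicates 2 and 4 and sib24 replicate 4) are the lowest in every panel, and mut24 replicate 1 or sib24 replicate 3, at marker means of 4.62 and 4.28, is the highest, while mut24 replicate 3, at 4.11, lies below sib24 replicate 2 for apoa4b.1, apoa4b.2 and apoea.

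Between 24 and 48 hpf the shares of members called were near those of all genes or below them. In mutants 3 of 8 were called lower at 48 hpf, where 30.4% of tested genes were. These were apoa4b.2 (log2 fold change -5.06, SE 1.57, edgeR adjusted p = 0.00899), apoeb (-1.65, SE 0.513, edgeR adjusted p = 0.0091) and apoa4a (-2.46, SE 1.05, edgeR adjusted p = 0.049). The means were 0.277 ± 0.165 CPM in mut48 against 9.55 ± 15.7 CPM in mut24 for apoa4b.2, 154 ± 29.2 CPM in mut48 against 485 ± 387 CPM in mut24 for apoeb and 1.96 ± 1.04 CPM in mut48 against 10.9 ± 14.9 CPM in mut24 for apoa4a (SD, n = 4 each). All 3 calls were lost without mut24 replicate 1, the highest mut24 library of each (edgeR adjusted p = 0.13, 0.0576 and 0.4), and then apoa2, apoa4b.1 and apoea were called higher. The call of apoa4a was also lost without mut24 replicate 3 or any single mut48 library (edgeR adjusted p = 0.0555 to 0.113), and in the fit of only mut48 and mut24 (edgeR adjusted p = 0.082). In siblings 2 of 8 were called higher at 48 hpf, where 34.1% of tested genes were, namely apoc2 (2.35, SE 0.908, edgeR adjusted p = 0.0318) and apoea (2.48, SE 1.06, edgeR adjusted p = 0.04995, just under the threshold). Mean apoc2 was 72.7 ± 15.8 CPM in sib48 against 14.3 ± 15.3 CPM in sib24, and mean apoea 107 ± 31.7 CPM in sib48 against 19.1 ± 21.0 CPM in sib24. In DESeq2 apoea was not called (adjusted p = 0.112) and apoa2 was (adjusted p = 0.0473). In the fit of only sib48 and sib24 all 3 of apoc2, apoea and apoa2 were called higher, where 7883 of 23001 genes were. In siblings 0 members were called without replicate 1 or 4 of either age or without sib24 replicate 2, 1 without sib48 replicate 2 or 3, and 3 without sib24 replicate 3.

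Ratios of paralogs also stood apart between the ages, though none passed the correction over the 20 tests. The log2 ratio of apoeb to apoea was 4.42 ± 0.722 in mut48 against 8.19 ± 1.87 in mut24, and 1.47 ± 0.235 in sib48 against 6.31 ± 4.11 in sib24 (SD, n = 4 each). The sib24 mean rests on replicate 4, which had 0 reads of apoea and whose log2 ratio of 12.46 is set by the prior count, while the others lay at 3.94 to 4.56. Without it the difference of sib48 from sib24 was -2.79 in place of -4.84. The log2 ratio of apoc1 to apoc2 was 1.87 ± 0.504 in mut48 against 5.01 ± 1.89 in mut24 and 1.73 ± 0.136 in sib48 against 4.69 ± 1.58 in sib24. The log2 ratio of apoa4b.1 to apoa4a was 4.52 to 5.88 in mut48 against 0.29 to 2.54 in mut24, and 4.23 to 5.15 in sib48 against 2.04 to 3.61 in sib24. None of these age pairs overlapped in either genotype, each at an exact permutation p of 0.0286 (smallest possible, adjusted p = 0.0571). The ratio of apoa4b.2 to apoa4b.1 was lower with age in mutants (-7.84 ± 0.580 in mut48 against -2.58 ± 1.74 in mut24, exact permutation p = 0.0286, adjusted p = 0.0571). In siblings it was -3.48 to -2.22 in sib48 against -2.99 to -0.78 in sib24 (exact permutation p = 0.0857, adjusted p = 0.156).

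The interaction of genotype and age, which asks whether the genotype difference itself differed between the ages, was called for 0 of 8 members in edgeR, where edgeR called 1% of tested genes in either direction. DESeq2 also called 0 of 8, where it called 464 of 24300 genes positive and 436 negative. In edgeR 1 member had an unadjusted p under 0.05, apoa4b.2, at a log2 interaction of -5.00 (SE 1.94, edgeR adjusted p = 0.208). The other 7 ran from -2.49 for apoa4a to -0.58 for apoa2, all negative, and the standard errors were 0.571 to 1.94. With the yolk syncytial layer covariate apoeb was called (-1.16, edgeR adjusted p = 0.00953). That members were called at 48 hpf and not at 24 hpf is thus not shown to be a difference between the ages.

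By mean CPM, sib48 was the highest group for apoa4b.1, apoea, apoc1, apoc2 and apoa2, sib24 for apoa4b.2 and mut24 for apoa4a and apoeb. The lowest was mut48 for apoa4a, apoa4b.2, apoeb and apoc1, mut24 for apoa4b.1 and apoea, and sib24 for apoc2 and apoa2. Neighbours in this order overlapped except between sib48 and the next group for apoea (sib24) and apoc2 (mut48), between sib48 and mut48 for apoeb, and between mut48 and mut24 for apoa2.

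The genes lie in clusters on chromosomes 16 and 19, read as gene order from the RefSeq table of assembly GRCz12tu, while the submitters' notes name GRCz11 for the counts. Neither chromosome carries lipf (chromosome 12) or pla2g15 (chromosome 25). The chromosome 16 cluster holds 6 members in the order apoa4b.1, apoa4b.2, apoeb, apoc1, apoa2 and apoc2, and the chromosome 19 cluster holds apoa4a and apoea side by side. Also within the chromosome 16 cluster is apoc4, with 4 reads in all, in 1 mut48 library. Between apoa4b.1 and apoa4b.2 the RefSeq order has a further A4 copy, apoa4b.3, which has no row under that symbol in the counts used here, and 2 genes that did not pass the filter. Whether reads of that copy were assigned to its neighbours was not tested. The 2 members furthest below siblings at 48 hpf, apoa4b.2 and apoea, are in different clusters, and each has a direct neighbour with a smaller difference. Of the 3 tested genes on either side of each cluster, 11 of 12 were not called at 48 hpf in the fit of all 16 libraries, among them nbn, bcam and rps19 around the chromosome 16 cluster. The exception was tomm40l next to apoa4a, which was lower in mut48 (log2 fold change -0.56, SE 0.093, edgeR adjusted p = 0.00181). On the other side of the chromosome 19 cluster, psmd4a narrowly missed the threshold (-0.35, SE 0.103, edgeR adjusted p = 0.0504). Of all tested genes 4.59% were called lower and 2.84% higher in that fit.

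**Figure D5:**
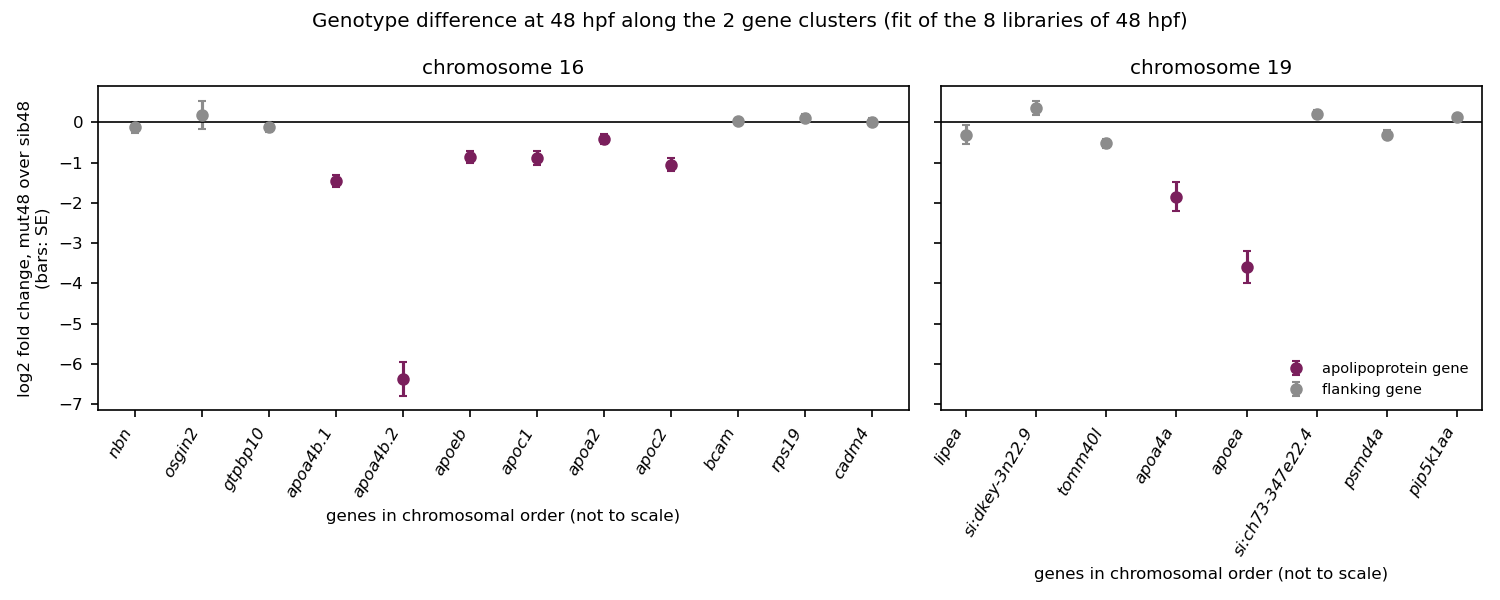
Log2 fold change at 48 hpf, mut48 over sib48, with bars for the SE, from the fit of the 48 hpf libraries, for the tested genes of the 2 clusters (purple) and 3 flanking genes on each side (grey) in chromosomal order, not to scale. All 8 purple points lie below 0, from -0.42 for apoa2 to -6.37 for apoa4b.2. The flanking genes lie between -0.52 for tomm40l and 0.36 for si:dkey-3n22.9, so that tomm40l lies below apoa2.

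Other genes of lipoprotein handling were taken from 4 lists, chosen by function but with earlier results of these data known. More of them were called higher than lower at 48 hpf, where 2.84% of tested genes were called higher and 4.59% lower. Because of how the lists were chosen, their direction is a description only. Of 18 tested genes of particle proteins and assembly, 1 was higher in mut48, apodb (1.59-fold, edgeR adjusted p = 0.0417), and 0 lower, with a median log2 fold change of -0.14. The core particle proteins apoba (log2 fold change -0.41, edgeR adjusted p = 0.873) and apoa1a (-0.17, edgeR adjusted p = 0.948) were not called. In the fit of the 48 hpf libraries alone 2 were higher and 2 lower. Lower were mttp, which loads lipid onto Apob (edgeR adjusted p = 0.01), and pla2g12b, a particle assembly factor (edgeR adjusted p = 0.0087). Higher were apodb and the Apob gene apobb.2, at edgeR adjusted p of 0.0131 and 0.00138. Mutants averaged 53.9 ± 5.88 CPM of apobb.2 at 48 hpf and siblings 24.5 ± 6.69 CPM (SD, n = 4 each). With all 16 libraries fitted, apobb.2 was not called (edgeR adjusted p = 0.511). At 24 hpf 0 of the 18 were called by edgeR in either direction and 2 had an unadjusted p under 0.05, with sec23b at the smallest p (log2 fold change 0.39, edgeR adjusted p = 0.27).

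Of 11 tested lipases, lipid transfer proteins and their regulators, 5 were higher and 1 lower in mut48. The endothelial lipase gene lipg was 3.66-fold higher (92.7 ± 5.25 CPM in mut48 and 25.4 ± 1.82 CPM in sib48, SD, n = 4 each, edgeR adjusted p = 3.73e-10). The gene of the enzyme that Apoc2 activates, lpl, was 3.22-fold higher (edgeR adjusted p = 1.41e-08), and its inhibitor gene angptl4 was 9.28-fold lower (edgeR adjusted p = 2.93e-07). Of 19 tested receptor and cholesterol export genes, 5 were higher and 0 lower, led by the lysosomal receptor gene scarb2a (1.38-fold), the scavenger receptor gene stab2 (1.89-fold) and the low-density lipoprotein receptor gene ldlrb (1.52-fold). Median log2 fold changes were 0.74 and 0.18 for these lists. At 24 hpf edgeR called 0 of the lipase list and 0 of the receptor list, 4 and 6 had an unadjusted p under 0.05, and the smallest p belonged to lipg (0.29, edgeR adjusted p = 0.0975) and ldlrb (0.61, edgeR adjusted p = 0.0512).

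Of 34 tested regulators of apolipoprotein genes, 9 were higher and 1 lower at 48 hpf, with a median log2 fold change of 0.28. The 3 with the smallest p were the lipogenic factor srebf1 (3.82-fold higher, edgeR adjusted p = 2.52e-08), the fatty acid receptor gene pparab (2.23-fold higher, edgeR adjusted p = 0.000234) and the sterol factor srebf2 (1.41-fold higher, edgeR adjusted p = 0.00597). The gene hnf4a, of the Hnf4 family that the title of the series names and whose product drives apolipoprotein genes in mouse liver, was not called, at 5.85 ± 0.826 CPM in mut48 against 4.06 ± 1.90 CPM in sib48 (log2 fold change 0.52, edgeR adjusted p = 0.411). At 24 hpf srebf1 (1.59-fold, edgeR adjusted p = 0.0111) and srebf2 (1.40-fold, edgeR adjusted p = 0.0259) were higher and 0 regulators were lower. Of all 24300 tested genes 95 were called higher at that age and 107 lower.

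Over all 16 libraries, the genes whose log2 CPM followed the mean z-score of the 8 members most closely were pla2g12b (Pearson r = 0.97), the triglyceride synthesis gene dgat2 (0.95), the transcription factor gene creb3l3a (0.95), cbln10 (0.93) and mttp (0.93), and 14 genes exceeded 0.9. Over the 8 libraries of 24 hpf they were pla2g12b, fga, apoba, fabp2 and dgat2, each at r = 0.99, and 219 genes exceeded 0.9. These libraries share the wide range of yolk markers described above, and the values are a description only. Among the members themselves r over 16 libraries ran from 0.72 for apoeb to 0.94 for apoa4a. The transcription factor gene creb3l3a, chosen here for its likeness, had 1.17 ± 0.514 CPM in mut48 against 3.16 ± 1.12 CPM in sib48 and was not called in the fit of all libraries (log2 fold change -1.44, edgeR adjusted p = 0.421) but was called lower in that of the 48 hpf libraries (edgeR adjusted p = 0.0343). The other Creb3l3 genes of the regulator list had higher means in mutants. Mean creb3l3l was 79.5 ± 17.5 CPM in mut48 against 53.0 ± 1.39 CPM in sib48, and mean creb3l3b 1.07 ± 0.344 CPM in mut48 against 0.314 ± 0.0632 CPM in sib48.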

How the data were processed

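The deposited table holds whole-number read counts per gene, 1 column per library, which the authors had neither normalised nor pooled. Per the submitters' processing notes, the build was GRCz11 and the tools named are STAR 2.7.10b, featureCounts 2.0.6, FastQC 0.12.1 and Trim Galore 0.6.10. The sources used here do not give the annotation or the settings for strand and multiply mapped reads. Of counts from 1 to below 20, 72.2% were even, so counts may not be independent molecules.

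Genes were kept by filterByExpr (24300 kept, 11809 removed) and tested with edgeR 4.0.16 (R 4.3.3) by its quasi-likelihood F-test, two-sided, with TMM scaling, fitted to all 16 libraries with 1 mean per group. The threshold was 0.05 on p-values adjusted over all tested genes by Benjamini-Hochberg. The SE of an edgeR log2 fold change was derived from the test, as its absolute value over the square root of the F statistic. The procedure was tested on simulated data in which each gene had the same spread at both ages. That test does not cover a spread that differs between the ages, as that of the members did. The fits were repeated without a filter, with upper-quartile or RLE scaling, with a stricter filter (1 CPM in 4 libraries), with DESeq2 1.42.0, with a yolk marker covariate or the replicate block, on only the groups compared, and leaving out each library. The covariate was the yolk syncytial layer marker mean, centred within each age. Paralog ratios were compared by exact permutation over 70 assignments.

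The members, the lists and the alternatives were chosen with earlier results of these data known. Named genes are all members, up to 3 called genes with the smallest p per list and genotype contrast (or the 1 smallest if none), the 5 genes most like the members, and the targeted genes. Outside this rule apoba, apoa1a, mttp, pla2g12b, hnf4a and the flanking genes were chosen after their values were seen. Of 90 listed pathway genes 84 were in the table. The smallest chi-square per degree of freedom between replicates was 12.6, far above sampling noise. Scaling alternatives moved the median log2 fold change of all genes by less than 0.1.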

Additional observations from a re-analysis of the deposited data

Results flagged for a closer look

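Over the 8 genes and 4 groups, 32 groups of 4 libraries were examined for a library far from the others. The gap to its nearest neighbour over the range of the group was set against the critical value of Dixon, on CPM and not on log2 CPM. For normally distributed values chance flags about 1 in 20. The CPM values of 24 hpf spread over a wide range, so that rate may not hold here. In 3 of the groups the highest library was flagged, each time mut24 replicate 1. It had 144.7 CPM of apoa4b.1 where the other mut24 libraries had 0.645 to 22.4 CPM. For apoa4b.2 it had 32.9 CPM where the others had 0 to 4.90 CPM. For apoea it had 20.6 CPM where the others had 0.131 to 1.64 CPM. This library also had the highest mean of yolk syncytial layer markers of the 8 libraries of 24 hpf (4.62), and the part of that in the 3 values was not tested.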

How the results depend on the processing

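At 24 hpf 0 of 8 members were called in the main test and 3 with the yolk syncytial layer covariate. At 48 hpf 1 was called in the main test, 2 with the replicate block, 7 with the covariate, 7 in the fit of only the groups compared (7 to 8 leaving out single libraries from it), and 0 to 1 leaving out single libraries from the main fit. In siblings with age 2 were called, against 1 with the stricter filter, 5 with the covariate, 3 in the fit of only the groups compared and 0 to 3 leaving out single libraries. Of all genes, 8290 of 24300 were called higher in the main test and 8543 of 24300 with the covariate. In the fit of only the groups compared 7883 of 23001 were. The covariate was centred within each age, so comparisons between the ages were not adjusted for the yolk marker level of each age. In mutants with age 3 were called, all lower. The covariate gave 7, with 4 higher and 3 lower, where 8601 of 24300 genes were called higher and 7394 lower. The fit of only the groups compared gave 0 higher and 2 lower, where 7568 of 23116 genes were called higher and 7271 lower. Leaving out single libraries gave 2 to 4 calls. Without the 4 libraries lowest in yolk markers 5 were called, 1 higher and 4 lower, where 7587 of 25082 genes were called higher and 6842 lower. The interaction was called for 0, and for 1 with the covariate. The share of counts of the 8 genes, mut48 minus sib48, was -0.0681 percentage points, and -0.109 points with the top 1 percent of genes left out of the denominator. The 0 of 20 ratio tests that passed correction stayed 0 with prior count 5, though no single ratio could pass on its own at the smallest permutation p. The causes of these moves were not tested. Over all values of single genes and ratios and all settings, 830 kept direction and side of the threshold and 48 changed sign. Of those that kept direction, 85 passed it newly and 29 no longer passed it.

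Signs turned mostly at 24 hpf. With the replicate block, mut24 against sib24 gave -0.20 for apoa2, -0.080 for apoa4a and -0.15 for apoc2, and with the covariate -0.58, -0.38 and -0.32. Without the 4 libraries lowest in yolk markers apoc1 stood at 0.083. For sib48 against sib24, apoa4b.2 was 0.97 with the block and 1.18 with the covariate, and without those 4 libraries apoa4a was -0.79 and apoc1 -0.36. For mut48 against mut24 without them, apoa4b.1 was -0.43 and apoea -0.37. The covariate turned the interaction of apoa2 to 0.37 and of apoa4b.1 to 0.59.

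Leaving out single libraries, mut24 against sib24 ran from -0.93 to 1.09 for apoa2, -0.87 to 1.28 for apoa4a, -3.09 to 0.62 for apoa4b.1, -3.87 to 0.12 for apoa4b.2, -0.47 to 0.34 for apoc1, -0.91 to 1.08 for apoc2 and -0.19 to 0.95 for apoeb. For sib48 against sib24 the ranges were -0.36 to 0.68 for apoa4a, -0.47 to 1.45 for apoa4b.2 and -0.64 to 0.19 for apoeb. For mut48 against mut24 apoea ran from -0.049 to 3.57. The interaction ran from -1.54 to 0.47 for apoa2, -2.11 to 1.61 for apoa4b.1 and -2.91 to 1.09 for apoea. Log2 ratio differences ran from -1.32 to 0.040 for apoa4b.2 to apoa4b.1 and -0.39 to 1.07 for apoc1 to apoc2 at 24 hpf, and from -0.0091 to 0.37 for apoc1 to apoc2 at 48 hpf.

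The replicate numbers are not shown to pair the libraries, since deviations of same-numbered libraries correlated at -0.107 to 0.203 at 24 hpf and -0.058 to 0.021 at 48 hpf. With the replicate block the members called were 0 at 24 hpf, 2 lower at 48 hpf, 3 higher in siblings with age, 2 lower in mutants with age and 0 for the interaction. Of 24300 genes, that fit called 802 lower at 48 hpf, 8194 higher in siblings with age and 7261 lower in mutants with age. The planned description of promoter motifs was not run. Depth limits the lowest values, since the lowest library of 24 hpf had 0 to 36 reads of apoa4a, apoa4b.1, apoa4b.2, apoea and apoc2, and mut48 libraries had 6 to 24 reads of apoa4b.2.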
